A study of Mus musculus with 4 samples.

Results

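Gata4 peaks at imprinted genes were described in Flk1(+) mesoderm cells with and without the de novo DNA methyltransferases Dnmt3a and Dnmt3b. A set of 40 genes known to be imprinted in the mouse was taken, and a peak was assigned to such a gene when its deposited entry named the gene, which means a RefSeq gene within 5 kb of the peak. Each peak was counted once, also where it named more than 1 gene of the set. The list of the wild-type (WT) Flk1(+) library held 48 such peaks of 20410, and the list of the double knockout (DKO) Flk1(+) library held 64 of 22733. Over both lists, the peaks named 12452 genes, of which 27 belonged to the set.

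Both genotypes derive from J1 ES cells of the 129 background, and the DKO cells are Dnmt3a-/-Dnmt3b-/-. All cells carried Gata4GR, in which Gata4 is joined to the hormone-binding part of the human glucocorticoid receptor. It was expressed from the CAG promoter, and dexamethasone (Dex) activates it. The Flk1(+) libraries came from cells cultured on OP9 stroma to day 4.5, treated with 100 nM Dex for 3 hr and sorted magnetically on Flk1, a surface receptor of mesoderm cells. The background libraries came from undifferentiated ES cells of the same genotype without Dex, so the lists compare cells that differ in both differentiation and Dex. There was 1 library for each of the 4 conditions and each Flk1(+) library came from 1 clone, so every value below describes single libraries, the spread between replicates is unknown, no test between genotypes was possible, and genotype cannot be told apart from clone or library. Intervals of shares are 95% Wilson intervals that cover counting error only. All intervals treat peaks as independent, although some neighbouring peaks share bases. The peak lists hold no marker expression, so that the labelled cell type could not be checked in them.

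An imprinted gene is expressed mainly from the copy inherited from 1 parent. Most imprinted genes lie in clusters under the control of a stretch of DNA, the germline differentially methylated region (DMR), that is methylated in only the egg or the sperm and keeps this state on that copy after fertilization. Dnmt3a lays down these marks in germ cells, whereas Dnmt1 copies them at each cell division, and imprints lost in ES cells are not rewritten there. The peaks do not separate the parental copies and say nothing of expression, and methylation was not measured in these files.

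Sequences of the peaks that the results turn on are given first, each as the central 121 bases of the deposited window, on the plus strand of mm9. The first set shows 4 of the 5 tallest peaks of these genes in the WT list, all of which had a partner in the DKO list, and the other one, at *Grb10*, closes the second set. Capitals mark the Gata motif WGATAA on the plus or minus strand, where W stands for A or T. *Airn* has no capitals because its window held no such match.
*Igf2r* intron, chr17:12917035-12917155: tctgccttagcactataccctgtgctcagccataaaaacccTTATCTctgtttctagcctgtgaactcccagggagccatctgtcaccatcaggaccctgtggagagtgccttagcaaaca
*Usp29*, chr7:6730536-6730656: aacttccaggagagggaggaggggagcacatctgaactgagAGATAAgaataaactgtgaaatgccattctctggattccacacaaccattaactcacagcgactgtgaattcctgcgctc
*Inpp5f* intron, chr7:135815997-135816117: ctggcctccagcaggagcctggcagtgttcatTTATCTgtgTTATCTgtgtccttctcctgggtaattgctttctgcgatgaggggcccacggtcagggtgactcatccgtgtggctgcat
*Airn* intron, chr17:12983723-12983843: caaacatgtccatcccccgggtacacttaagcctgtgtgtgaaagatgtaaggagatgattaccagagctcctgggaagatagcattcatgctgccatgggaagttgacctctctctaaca

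The second set shows peaks at starts of imprinted genes that were found in 1 list only, and the *Grb10* peak found in both. Here capitals mark CpGs, the sites that DNA methyltransferases act on.
*Airn* start, WT list only, chr17:12934129-12934249: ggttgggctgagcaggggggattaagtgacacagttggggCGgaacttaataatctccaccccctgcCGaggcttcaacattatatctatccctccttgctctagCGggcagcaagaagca
*Kcnq1ot1* start, WT list only, chr7:150482020-150482140: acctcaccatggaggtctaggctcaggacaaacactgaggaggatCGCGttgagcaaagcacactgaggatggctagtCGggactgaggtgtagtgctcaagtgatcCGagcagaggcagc
*Peg3* and *Usp29* starts, WT list only, chr7:6683206-6683326: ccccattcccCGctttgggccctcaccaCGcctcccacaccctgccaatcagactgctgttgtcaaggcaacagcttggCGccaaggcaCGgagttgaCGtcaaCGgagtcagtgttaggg
*Igf2* start, DKO list only, chr7:149846608-149846728: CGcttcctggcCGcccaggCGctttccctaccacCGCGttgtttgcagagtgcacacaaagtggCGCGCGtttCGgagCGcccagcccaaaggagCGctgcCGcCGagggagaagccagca
*Phlda2* start, DKO list only, chr7:150688528-150688648: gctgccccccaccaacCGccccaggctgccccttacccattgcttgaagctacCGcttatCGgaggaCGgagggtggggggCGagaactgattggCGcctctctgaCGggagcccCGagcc
*Cd81* start, DKO list only, chr7:150238946-150239066: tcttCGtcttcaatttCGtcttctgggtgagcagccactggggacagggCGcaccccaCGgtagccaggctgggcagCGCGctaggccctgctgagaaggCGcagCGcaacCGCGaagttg
*Grb10* intron, both lists, chr11:11926341-11926461: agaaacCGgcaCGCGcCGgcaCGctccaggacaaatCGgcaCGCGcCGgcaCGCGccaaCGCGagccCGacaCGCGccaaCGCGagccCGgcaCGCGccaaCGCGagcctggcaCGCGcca

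WT peaks named 18 of the 40 genes, and DKO peaks named 24. Among peaks with a height of at least 7 the order turned, with 15 genes named by 28 WT peaks and 14 genes by 23 DKO peaks, and the whole lists turned likewise, with 12162 WT and 11040 DKO peaks of that height. The 15 genes named in both lists were *Igf2r*, *Airn*, *Peg3*, *Usp29*, *Copg2*, *Sgce*, *Asb4*, *Ppp1r9a*, *Ube3a*, *Kcnq1*, *Cd81*, *Grb10*, *Gnas*, *Nespas* and *Inpp5f*. The WT list alone named 3 genes (*Snrpn*, *Kcnq1ot1* and *Tspan32*), and the DKO list alone named 9 (*H19*, *Igf2*, *Peg10*, *Ndn*, *Magel2*, *Phlda2*, *Slc22a18*, *Nnat* and *Impact*). The same split was not computed over all genes. A gene absent from a list had no called peak, which does not show that Gata4 was absent there, since each list stops at a height of 5.00 and an enrichment of 3.00. Whether the listed heights are scaled for the number of reads is not known, and the methods give more mapped reads for the DKO than for the WT library.

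To set these counts beside all genes, peaks were assigned again by the gene bodies of an mm9 annotation (GENCODE), extended by 5 kb. Of the 39 members with a position there, 17 had a WT peak, which is 43.6% (29.3% to 59.0%), against 38.0% of all 26046 genes. A DKO peak was found at 23 of the 39, which is 59.0% (43.4% to 72.9%), against 47.0% of all genes. Both intervals hold the share of all genes. The members were also longer, with a median of 20697 bp against 13591 bp, and the part of length in the counts was not tested.

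**Figure D1:**
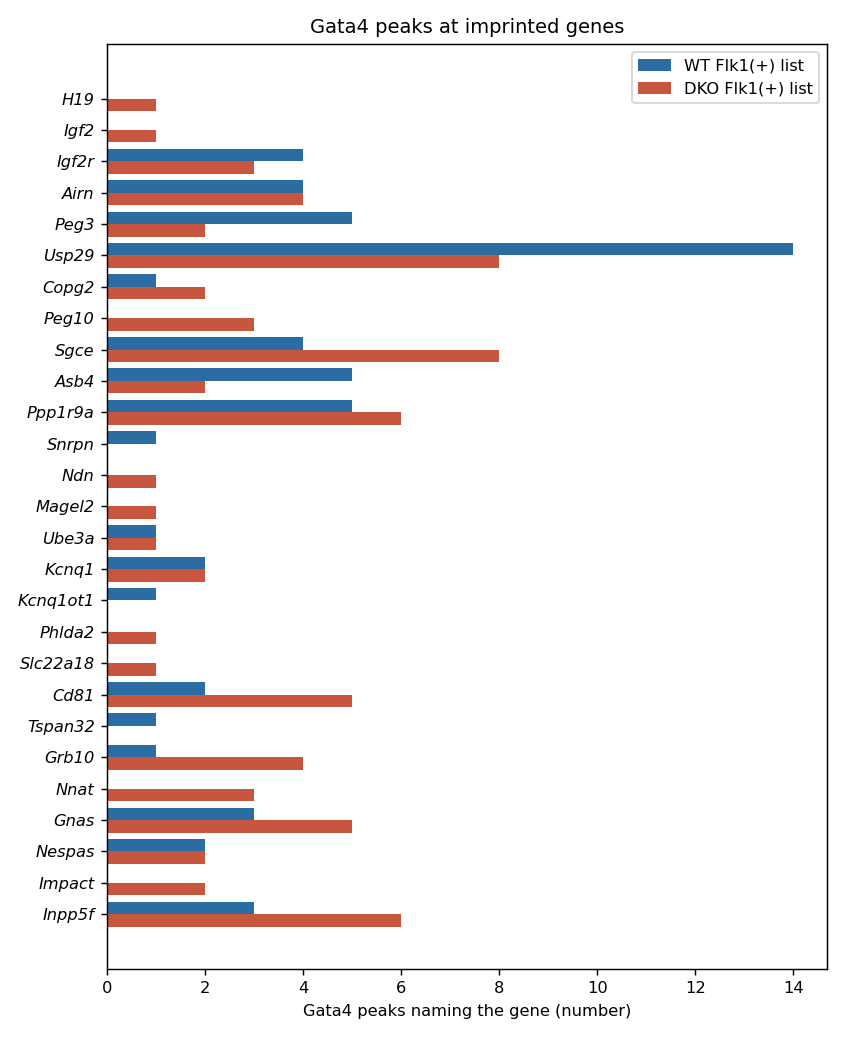
Number of Gata4 peaks (horizontal axis) whose deposited entry names each of the 27 imprinted genes with a peak in either list (vertical axis), in the WT (blue) and the DKO (red) Flk1(+) list. *Usp29* had the most WT peaks, 14, and *Usp29* and *Sgce* the most DKO peaks, 8 each, and 9 genes have a red bar only.

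Some long non-coding RNAs of imprinted clusters silence neighbouring genes on the same chromosome. *Airn* runs antisense through *Igf2r* from the paternal copy. Its start lay 12 bp from a WT peak at 12934189 on chromosome 17, with a height of 7.19 in the units of the authors' profile, which had no DKO partner. A second peak lay 792 bp upstream of the start in the WT list and 816 bp upstream in the DKO list, with heights of 8.15 and 9.63, and its window held 2 CpGs and 2 WGATAA matches. The tallest *Airn* peak lay in an intron 49606 bp (WT) and 49594 bp (DKO) from the start, with heights of 20.6 and 22.5. This was the tallest DKO peak among the imprinted genes, ranking 72 in its list by the authors' q-value, against 329 in the WT list, and it held no WGATAA but 3 matches of WGATAR, where R stands for A or G.

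*Kcnq1ot1*, the antisense RNA that silences the *Kcnq1* cluster on the paternal copy, had a WT peak 372 bp from its start with a height of 9.53, 26 CpGs and 1 WGATAA match. The nearest DKO peak lay 75370 bp away. *Nespas*, the antisense RNA of the *Gnas* locus, had peaks near its start in both lists. The WT peak lay 289 bp away with a height of 7.73, and the DKO peaks lay 66 bp and 540 bp away with heights of 5.36 and 6.36. *H19*, the maternally expressed RNA beside *Igf2*, was named by a DKO peak only, downstream of the gene, 5371 bp from its start, with a height of 5.78.

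Among the 8 genes that act on growth, 2 had WT peaks (7.15% to 59.1%) and 4 had DKO peaks (21.5% to 78.5%). These intervals hold the shares of all genes by annotated bodies, 38.0% and 47.0%. No WT peak but DKO peaks at 3 of these growth genes lay within 1 kb of a start. Over all genes, with 1 annotated start each, 20.3% had a WT peak and 32.2% a DKO peak there, and no difference was tested. *Igf2r* encodes the receptor that clears Igf2, and it held the tallest WT peak of all imprinted genes, in an intron at 12917095 on chromosome 17. That peak had a height of 42.8 over an ES height of 2.46 and ranked 114 of 20410, and its DKO partner 26 bp away had a height of 19.05 over an ES height of 0.998 and ranked 138 of 22733. The window held 3 WGATAA matches and 4 CpGs. At the *Igf2r* start the DKO list had a further peak, 113 bp from the start, with a height of 12.7 and 66 CpGs in its window, and the nearest WT peak lay 21324 bp away.

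*Igf2*, the growth factor expressed from the paternal copy, had a DKO peak 272 bp from a RefSeq start, with a height of 5.97 and 46 CpGs. *Phlda2*, a maternally expressed gene that restrains placental growth, had a DKO peak 159 bp upstream with a height of 6.31 and 41 CpGs, and this peak also named the transporter gene *Slc22a18*. None of these start-site peaks held WGATAA. *Grb10*, an adaptor that restrains insulin and growth factor signalling, had an intronic peak in both lists 20 bp apart, 10957 bp from the start in the WT list. Its height was 28.1 in the WT and 14.6 in the DKO list, and its window held 70 CpGs and no GATA, and short stretches recur in the bases printed above. The 3 other *Grb10* peaks were DKO peaks of 6.37, 6.79 and 5.48 in height in the same gene, and none had a WT partner.

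**Figure D2:**
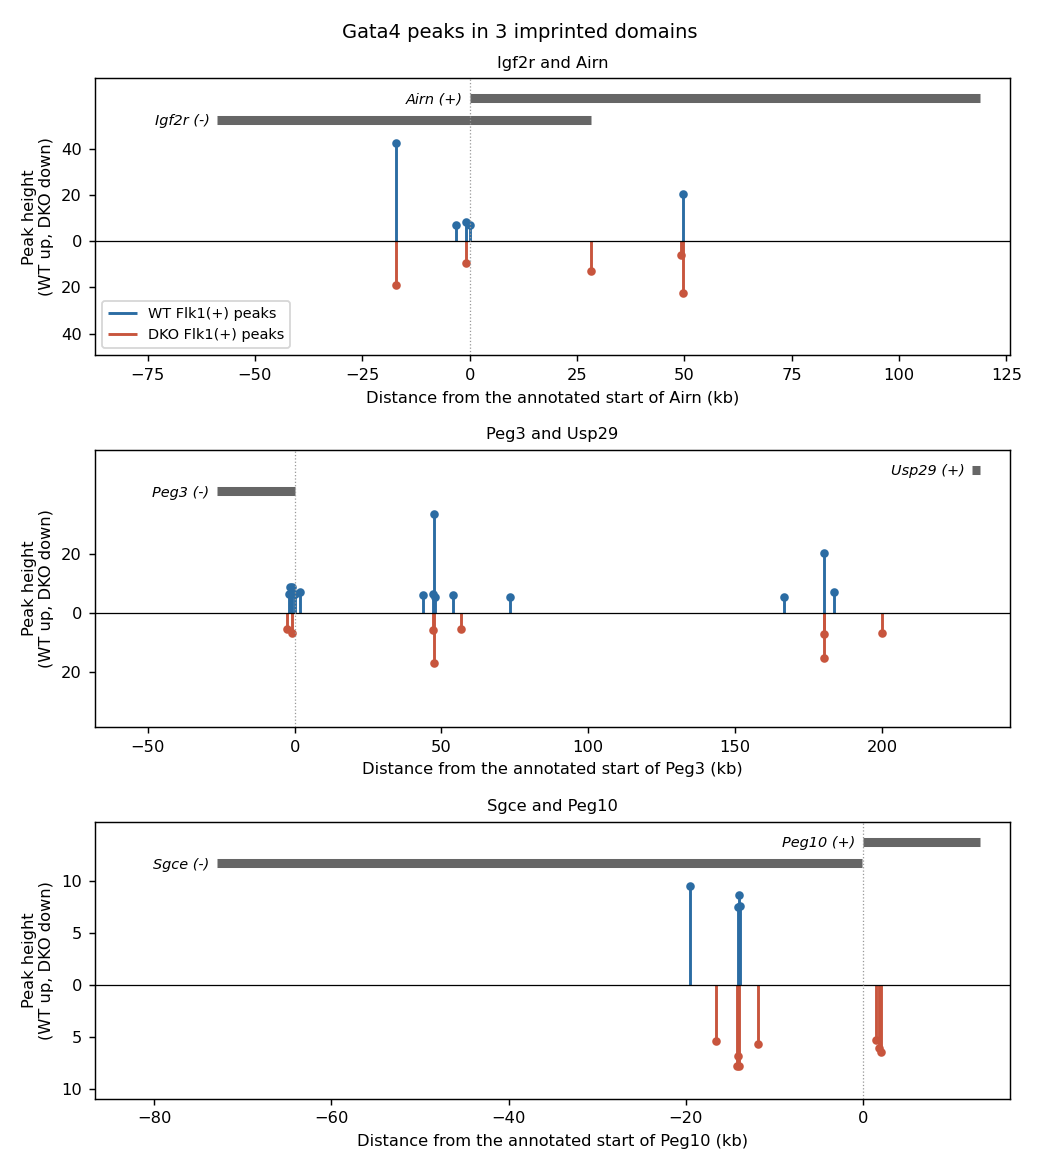
Height of each Gata4 peak (vertical axis, authors' profile units, WT upward in blue and DKO downward in red) against its distance in kb from the annotated start of Airn, Peg3 or Peg10 (horizontal axis), with grey bars for annotated genes and their strand. The tall peaks of Igf2r, Airn and Usp29 have partners in both lists, and the peaks just inside Peg10 appear in the DKO list only.

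Peaks at *Peg3* and *Usp29*, which start beside each other at a maternally methylated DMR, were more numerous in the WT list. The *Peg3* domain had 14 WT and 8 DKO peaks, and it was the only domain of the 15 with more WT than DKO peaks. *Peg3*, a paternally expressed zinc finger gene, was named by 5 WT peaks and 2 DKO peaks. The WT peak nearest the starts lay 136 bp from *Peg3* and 186 bp from *Usp29*, with a height of 6.55 and 22 CpGs, and had no DKO partner. The peak 941 bp inside *Peg3* had a height of 8.90 in the WT list, and its partner in the DKO list a height of 6.62. Both held 2 WGATAA matches beside 28 and 21 CpGs.

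*Usp29*, a paternally expressed gene of the ubiquitin protease family, was named by 14 WT and 8 DKO peaks, most of them within the long transcript that RefSeq draws (GENCODE gives a short gene body). The tallest lay 47144 bp from the start at 6730596 on chromosome 7, with a height of 33.3 for WT and 17.0 for DKO, 2 bp apart. The next lay 179829 bp from the start, with heights of 20.2 and 15.2 and 5 WGATAA matches. Of the 14 WT peaks 9 had no DKO partner, and of the 8 DKO peaks 3 had no WT partner. These unpartnered *Usp29* peaks were low, from 5.44 to 8.90 in the WT list and from 5.46 to 6.79 in the DKO list.

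*Snrpn*, a splicing gene at the imprinting centre of its domain, was named by a single WT peak of height 6.86 in an intron, 9257 bp from a start, with 3 WGATAA matches and 2 CpGs. *Impact*, a paternally expressed regulator of translation, was named by 2 DKO peaks, 57 bp and 689 bp from its start, with heights of 8.03 and 6.92.

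In the same domain as *Snrpn*, the MAGE family genes *Ndn* and *Magel2*, both paternally expressed, had DKO peaks 102 bp and 97 bp from their starts. Their heights were 9.28 and 6.29, their windows held 33 and 28 CpGs and no WGATAA, and the nearest WT peaks lay 44697 and 16000 bp away. *Ube3a*, a ubiquitin ligase that is expressed from the maternal copy in neurons, had a peak upstream of its start in both lists. The WT peak had a height of 5.17 at 371 bp and the DKO peak a height of 7.98 at 62 bp, where the window held 48 CpGs against 19 in the WT window.

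*Peg10*, a paternally expressed gene derived from a retrotransposon, was named only in the DKO list. Its 3 peaks lay 1511, 1841 and 2066 bp inside the gene with heights of 5.31, 6.10 and 6.42, and their windows held 14, 19 and 21 CpGs and no WGATAA. *Sgce*, a sarcoglycan gene that starts beside *Peg10* in the other direction, had 4 WT and 8 DKO peaks, of which 3 were those same peaks inside *Peg10*. A group of 3 WT and 3 DKO peaks between 13730 and 14115 bp inside *Sgce* overlapped each other, with heights from 7.44 to 8.63 in the WT list and from 6.89 to 7.84 in the DKO list. No window of this group held WGATAA.

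Further along the same cluster, *Asb4*, a maternally expressed gene of the SOCS box family, had 5 WT and 2 DKO peaks. Its tallest WT peak, 3207 bp from the start, had a height of 15.8 against 9.44 in the DKO list and 4 WGATAA matches. A WT peak of 13.9 in height lay 2087 bp from the *Asb4* start and was the tallest WT peak at any of these genes without a partner. The peak 6298 bp from the start had a height of 11.6 in the WT list against 5.37 for its DKO partner, and its window held no CpG and no GATA. *Ppp1r9a*, which encodes an actin-binding scaffold, had 5 WT and 6 DKO peaks, of which 1, a WT peak of 5.36, lay within 1 kb of its start.

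*Copg2*, a coat protein gene beside *Mest*, had a WT peak of 5.68 and a DKO peak of 10.5 in height that overlapped near its start, and a further DKO peak of 5.93. The DKO windows held 67 and 40 CpGs and the WT window 38. In the *Kcnq1* cluster, *Kcnq1* itself, a potassium channel gene, had 2 WT peaks, 1 of them that of *Kcnq1ot1*, and 2 DKO peaks, and none overlapped. *Cd81*, a tetraspanin gene, was named by 2 WT and 5 DKO peaks. A WT peak 16403 bp and DKO peaks 16094 and 16350 bp from its start lay downstream of the gene. They were 215, 524 and 268 bp from the start of the neighbouring gene *Tssc4*. The DKO peak 351 bp from the *Cd81* start had a height of 12.97 and 40 CpGs and was the tallest DKO peak without a WT partner, and the peak 5146 bp inside the gene had heights of 13.5 in the WT and 7.30 in the DKO list. *Tspan32*, a further tetraspanin gene, had a single WT peak of 9.41 in height, 942 bp from a RefSeq start, with 1 CpG and 1 WGATAA match.

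*Gnas* encodes the stimulatory G protein alpha subunit and has several starts, which differ in parental expression. It was named by 3 WT and 5 DKO peaks. A pair 128 bp apart near an internal start had heights of 9.06 in the WT and 6.87 in the DKO list, with 40 and 47 CpGs. A DKO peak in a coding exon 293 bp from a further start had a height of 7.28 and 71 CpGs, the most of any window here. *Nnat*, a paternally expressed gene of a neuronal membrane protein, was named by 3 DKO peaks of 5.08, 5.23 and 5.13 in height, all close to the calling threshold, and the first lay 341 bp from its start with 39 CpGs. The other 2 lay downstream of *Nnat*, 581 and 737 bp from the start of the neighbouring gene *Blcap*, and their windows overlapped. *Inpp5f*, a phosphoinositide phosphatase gene, had 3 WT and 6 DKO peaks. Its tallest peak, in an intron at 135816057 on chromosome 7, had heights of 31.6 and 18.4 and 2 WGATAA matches 3 bases apart, and its start had a peak in both lists, with heights of 6.26 and 6.66 and 24 CpGs. A DKO peak 77138 bp from the *Inpp5f* start, in an untranslated exon, had a height of 9.44, 36 CpGs and 1 WGATAA match. It had no WT partner.

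No peak in either list named the 13 genes *Zim1*, *Mest*, *Mkrn3*, *Cdkn1c*, *Ascl2*, *Dlk1*, *Meg3*, *Rtl1*, *Rian*, *Mirg*, *Dio3*, *Plagl1* and *Zrsr1*. All 6 genes of the *Dlk1*-*Dio3* domain were among them. The nearest peaks to *Meg3* lay 40126 bp upstream of it (WT) and 40136 bp upstream (DKO), between *Dlk1* and *Meg3*, with heights of 48.9 in the WT and 16.2 in the DKO list, which in the WT list is above every peak that named an imprinted gene of the set. *Mest* had a WT peak of 6.25 in height 934 bp before its annotated gene body, although the deposited entry does not name it. *Zrsr1* lay 5635 bp from a DKO peak of 15.5 in height, just past the 5-kb limit. The deposited entry of that peak names another gene, *Commd1*, whose start was 151 bp away.

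Peaks that overlapped in the lists were compared next, taking peaks as overlapping when their positions lay within 500 bp, so that the 501-bp windows shared a base. Of the 48 WT peaks, 22 had no DKO partner, which is 45.8% (32.6% to 59.7%), against 54.4% of the whole WT list. Of the 64 DKO peaks, 34 had no WT partner, which is 53.1% (41.1% to 64.8%), against 54.9% of the whole DKO list. Both shares were below that of their own list and both intervals hold it. Here and below, the whole lists also hold peaks with no gene within 5 kb, unlike the peaks of the set. When windows that shared bases were merged, the peaks fell at 70 places, of which 20 were in both lists, 21 in the WT list only and 29 in the DKO list only. Peaks of the whole lists were not merged in this way. Whether this split is particular to imprinted genes is therefore unknown.

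The unpartnered peaks were low. Their median height was 6.70 for WT and 6.10 for DKO, against 8.85 and 7.14 for the partnered peaks. The whole lists had the same order, with medians of 6.69 for WT and 6.40 for DKO without a partner, against 10.1 and 7.82 with one. Of the 22 WT peaks without a partner, 14 had a height under 7, and of the 34 such DKO peaks, 26 did. Among the 9 genes that only the DKO list named, the tallest peak had a height of 9.28 at *Ndn* and 8.03 at *Impact*, and it ranged from 5.23 at *Nnat* to 6.42 at *Peg10* at the other 7. At the 3 genes that only the WT list named it was 9.53 at *Kcnq1ot1*, 9.41 at *Tspan32* and 6.86 at *Snrpn*.

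Place and base composition moved together. Within 1 kb of the start of a gene of the set lay 13 of the 48 WT peaks and 20 of the 64 DKO peaks. Counting the start of any RefSeq gene, the shares were 14 of 48, which is 29.2% (18.2% to 43.2%), against 26.2% of the whole WT list, and 24 of 64, which is 37.5% (26.7% to 49.7%), against 47.5% of the whole DKO list. Peaks with no gene within 5 kb stay in the whole lists and count as not near a start, so the 2 sets are not alike in this. By gene, 11 had a WT peak within 1 kb of their own start and 14 had a DKO peak there, and 6 had both (*Airn*, *Copg2*, *Ube3a*, *Gnas*, *Nespas* and *Inpp5f*). With the starts of the annotation, which gives 1 start per gene, 8 of 39 had a WT peak there, which is 20.5% (10.8% to 35.5%), against 20.3% of all genes, and 12 of 39 had a DKO peak, which is 30.8% (18.6% to 46.4%), against 32.2%. The DKO list alone had such peaks at *Igf2*, *Igf2r*, *Ndn*, *Magel2*, *Phlda2*, *Cd81*, *Nnat* and *Impact*, and the WT list alone at *Peg3*, *Usp29*, *Ppp1r9a*, *Kcnq1ot1* and *Tspan32*.

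CpGs were counted in the 501-bp windows. The median was 8 in the WT peaks of imprinted genes and 8 in the whole WT list, and it was 11 in the DKO peaks of imprinted genes and 21 in the whole DKO list. Within 1 kb of a start of the set the medians were 21 for the 13 WT peaks and 37 for the 20 DKO peaks, with ranges of 1 to 40 and 2 to 71. Counting the start of any RefSeq gene, the medians were 21.5 for 14 WT peaks and 31 for 24 DKO peaks, against 36 and 38 in the whole lists, where the WT windows at starts held up to 89 CpGs. Over all genes the medians at starts were thus close, and the values at imprinted genes rest on few peaks. Away from any gene start the medians were 6 for WT and 7.5 for DKO, against 6 and 7 in the whole lists.

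**Figure D3:**
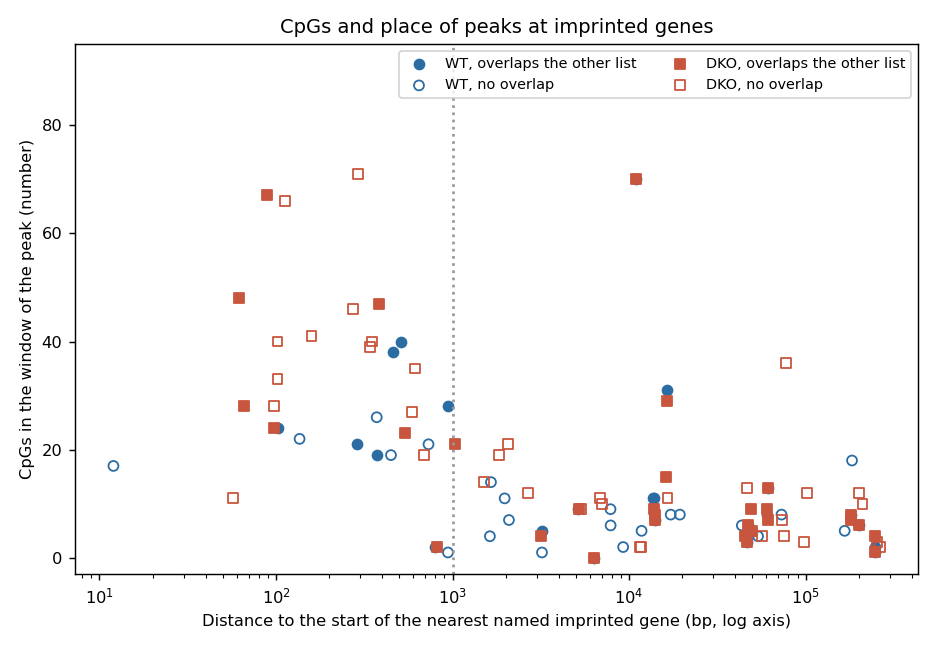
CpGs in the 501-bp window of each peak at an imprinted gene (vertical axis) against the distance to the start of the nearest imprinted gene it names (horizontal axis, bp, log axis, distances under 10 bp drawn at 10), for WT (circles) and DKO (squares), filled where a peak of the other list overlaps. Left of the dotted line at 1 kb the WT windows hold at most 40 CpGs and several DKO windows more, and the pair at 70 CpGs on the right is the Grb10 peak.

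Both strands of each window were searched for WGATAA. It was present in 24 of the 48 WT peaks, which is 50.0% (36.4% to 63.6%), against 61.9% of the whole WT list, and in 24 of the 64 DKO peaks, which is 37.5% (26.7% to 49.7%), against 38.1% of the whole DKO list. In windows centred 2 kb to either side of these peaks the shares were equal to those of the peaks, 50.0% for WT and 37.5% for DKO, and the flanks of the whole lists had 41.1% and 38.8%. The motif was more frequent in the peaks than in the flanks only when the search was kept to the central 201 bp, where 22 of 48 WT peaks held it (45.8%) against 29.2% of the flanks, and 17 of 64 DKO peaks (26.6%) against 18.8%. For the whole lists the central shares were 52.6% against 19.6% and 28.9% against 17.9%.

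At starts of the set, 5 of 13 WT peaks and 2 of 20 DKO peaks held WGATAA, and the latter were at *Airn* and *Impact*. Away from any gene start, 19 of 34 WT peaks (55.9%) and 22 of 40 DKO peaks (55.0%) held it. For WT the intervals of these shares, 17.7% to 64.5% at starts and 39.5% to 71.1% away from them, overlap widely. For DKO the intervals, 2.8% to 30.1% and 39.8% to 69.3%, do not overlap. No difference was tested. Peaks near the start of a gene outside the set fall in neither group. Over the whole lists the shares at starts and away from them were not computed. Whether these counts are particular to imprinted genes is therefore unknown. The hexamer TGCCGC, which the imprint-protecting protein Zfp57 binds when methylated, was present in 11 of 48 WT peaks (22.9%) and in 20.3% of the DKO peaks (13 of 64), against 13.7% and 22.4% of the whole lists.

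**Figure D4:**
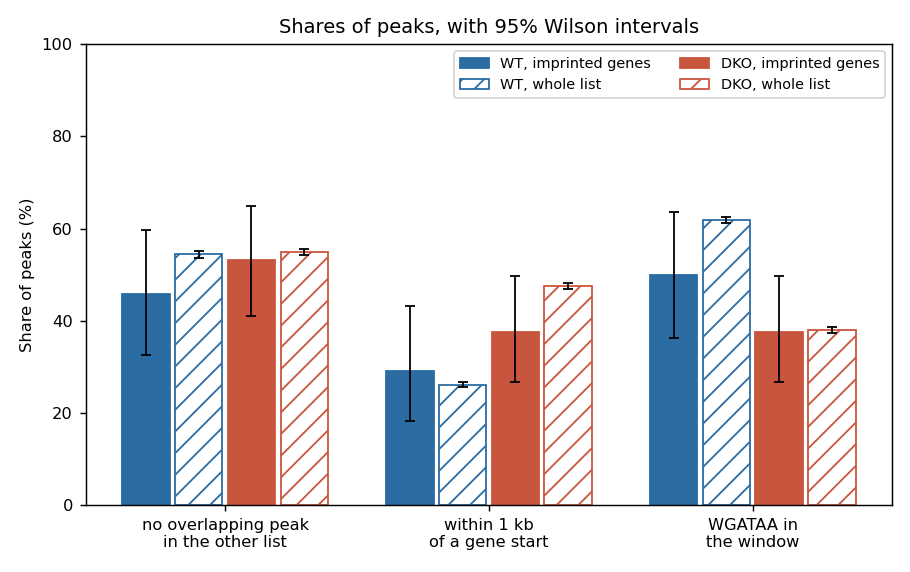
Share of peaks in percent (vertical axis) with no overlapping peak in the other list, within 1 kb of a gene start, and with WGATAA in the window, for peaks at imprinted genes (filled) and the whole list (hatched), WT in blue and DKO in red, with 95% Wilson intervals for counting error. The intervals at imprinted genes hold the share of the whole list in each of the 6 comparisons. The whole list also holds peaks with no gene within 5 kb.

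Heights were compared at the 24 places where a WT and a DKO peak were each other's nearest. The log2 height in DKO minus WT had a median of -0.34 at imprinted genes, from -1.17 to 0.89, and it was negative at 18 of the 24. Over all 8489 such pairs of the lists the median was -0.31, so heights at imprinted genes differed between the lists about as much as heights elsewhere. The largest differences downward were at *Igf2r* (-1.17), *Asb4* (-1.11) and *Usp29* (-0.97), and the largest upward were at *Copg2* (0.89) and *Ube3a* (0.63), whose partners were the pairs farthest apart, at 374 and 309 bp. The enrichment, which is the height over that in the ES library with an ES height under 1 taken as 1, had a median log2 difference of 0.06 at imprinted genes and 0.08 over all pairs. At the *Igf2r* peak, where the height differed most, the enrichment was 17.4 in the WT list and 19.05 for its DKO partner.

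**Figure D5:**
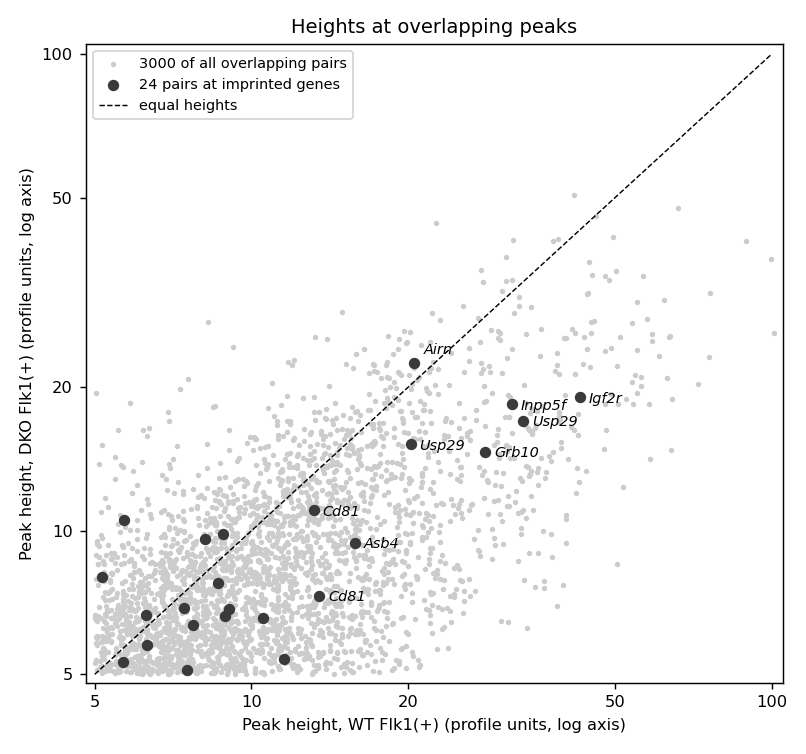
Height in the DKO list (vertical axis) against height in the WT list (horizontal axis), both on log axes in the authors' profile units, for the 24 pairs at imprinted genes (dark) and 3000 of all 8489 overlapping pairs (grey), with the line of equal heights. Most pairs of either kind lie below the line, and the Airn pair with heights of 20.6 and 22.5 lies above it.

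Grouped by the parental copy that is known to be expressed, 9 of 18 maternally expressed genes had a WT peak and 11 a DKO peak, and 8 of 21 paternally expressed genes had a WT peak and 12 a DKO peak. A list of 13 genes whose start lies in or beside a maternally methylated germline DMR had 7 with a WT peak and 8 with a DKO peak. It may leave out genes of the set whose DMR lies at an internal start. The intervals of all 3 groups hold the shares of all genes, 38.0% for WT and 47.0% for DKO. Those shares are by annotated bodies, whereas the groups were counted by deposited names. At their own starts, 5 of the 13 had a WT peak (*Airn*, *Peg3*, *Usp29*, *Kcnq1ot1* and *Nespas*) and 4 had a DKO peak (*Airn*, *Nnat*, *Nespas* and *Impact*). Near the annotated start, 20.3% of all genes had a WT peak and 32.2% a DKO peak, with 1 start counted per gene. These lists are small and no list was tested.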

How the data were processed

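Gata4 ChIP-seq used a mixture of 3 anti-Gata4 antibodies, with 1 library for each of 4 conditions and no replicates. Reads were mapped to mm9, and CASAVA 1.8.1 and cutadapt are credited to the submitters' processing notes. The aligner is not given in the sources used here. With DNAnexus tools the authors called peaks per Flk1(+) library, using ES cells of that genotype as background, and any scaling of heights for depth is not stated.

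The deposited signal is a peak height, given by the authors for the Flk1(+) and the ES profile. The authors' ratio is their enrichment, in which an ES height under 1 was taken as 1, as checked for every peak. The lists also hold the −log10 q-value of the authors, and the deposited rank (a score, 1 being best) is ordered by it. Positions and distances to RefSeq genes within 5 kb are the authors' too. Read depth was not used, and precision is limited by the number of peaks and by single libraries. Since the columns do not name libraries, the genotype of a list was taken from its number of peaks, which the methods state. The lists have 0 further per-sample columns.

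The deposited 501-bp windows equalled the mm9 reference for all 20410 and 22733 peaks. The motif WGATAA, the looser WGATAR, the core alone and the Zfp57 hexamer were looked for on either strand. Flanks were windows 2 kb to either side. Genes came from GENCODE vM1, in which 39 of the 40 genes have a position, *Kcnq1ot1* being the exception. Distances to starts are the authors', to RefSeq starts. Shares carry 95% Wilson intervals, and no test was made, for lack of replicates. The overlap and motif steps were tested on simulated data. Software was Matplotlib 3.10.9, pysam 0.24.0, pandas 2.3.3, SciPy 1.17.1, NumPy 2.4.6 and Python 3.11.15.

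The genes and lists were chosen with earlier results of these data known. Every gene with a peak in either list was named, those without once. Sequences shown are central parts of the tallest peaks and of start-site peaks. The alternatives were a better rank or a height of at least 7, other assignments of peaks to genes, other overlaps, motifs, windows and distances to a start.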

Additional observations from a re-analysis of the deposited data

How the results depend on the processing

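Of 81 values recomputed under the alternatives, 63 kept to the main value (counts within 1.5 times, shares and medians within its 95% interval), and 18 did not. With only the better-ranked peaks (rank in the upper 50% of each list) 24 WT and 30 DKO peaks were left at imprinted genes, and the share near a start was 12.5% in the WT and 23.3% in the DKO list. With a height of at least 7, 28 WT and 23 DKO peaks were left, the DKO peaks named 14 genes in place of 24 and the WT peaks 15 in place of 18, so that the WT list named more genes, and the shares without a partner were 28.6% and 34.8%. Requiring positions within 100 bp raised the DKO share without a partner to 67.2%. WGATAR was present in 66.7% of WT and 54.7% of DKO peaks, and GATA alone in 91.7% and 78.1%. In the central 200 bp WGATAA was present in 26.6% of DKO peaks, and the median CpGs were 4 in WT and 5.5 in DKO peaks. With a start distance of 500 bp the DKO share near a start was 26.6%. Over the whole lists, the shares near a start and without a partner were not recomputed under these alternatives. The whole-list shares of the main setting are therefore no measure for them. The median height difference at paired peaks stayed negative and within its interval under the other overlaps tried. Lists of single libraries cannot show what varies between libraries, and a gene missing from a list may have had signal under the calling threshold. No paired analysis was possible because each condition had 1 library.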

Other observations

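A further list of 32 imprinted genes outside the set had 15 with a WT peak and 14 with a DKO peak, of which 11 were the same genes. These are 46.9% and 43.8%, against 38.0% and 47.0% of all genes by annotated bodies, whose shares both intervals hold. Of their 34 WT and 33 DKO peaks, 1 and 5 also named *Cd81* or *Nnat* and are counted above. *Rasgrf1*, a paternally expressed exchange factor gene, had its single peak 4 bp apart in the lists, with heights of 53.9 in the WT and 20.5 in the DKO list and 3 WGATAA matches. *Ddc*, the aromatic amino acid decarboxylase gene beside *Grb10*, was named by 16 WT and 14 DKO peaks, and its tallest had heights of 29.9 and 34.4. *Zdbf2* was named in the WT list only, by a peak 5 bp from the gene with a height of 8.90 and 71 CpGs and a lower one inside it with a height of 5.26, 4 CpGs and 2 WGATAA matches.

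Of 6 genes that keep imprints, 4 had a WT peak and 4 a DKO peak, and *Trim28*, *Ctcf* and *Uhrf1* were among both. The shares of all genes by annotated bodies were 38.0% and 47.0%, which both intervals hold. *Dnmt1*, the maintenance methyltransferase, was named by 4 DKO peaks and no WT peak, the tallest 66 bp from the gene with a height of 13.5. *Zfp57*, the zinc finger protein that protects imprints, was named by 1 WT peak 40 bp from the gene with a height of 8.01 and by no DKO peak. The libraries were single, and these differences were not tested.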
